A study of Mus musculus with 14 samples.

Results

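Genes of the voltage-gated and potassium ion channels were followed through the brain transcriptome of mice with chemically induced neuronopathic Gaucher disease. Members were the genes of the deposited count table whose symbol starts with Kcn, with Cacn, with Scn and a digit, or with Hcn and a digit, which gave 110 of 13866 listed genes. They comprised 74 potassium channel genes, 22 calcium channel genes, 11 sodium channel genes and 3 HCN genes. Of these, 93 had enough counts to be tested (63 potassium, 19 calcium, 8 sodium and 3 HCN), and the other 17 are described by their counts. The potassium set includes 2 antisense transcripts, Kcnd3os and Kcnmb4os2, both tested. Counts of channel genes below include them. The fixed list of channel genes also held Kcna3, Scn3a, Cacna1e and Hcn4, which were not analysed here.

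The brain libraries came from 14 mice aged 19 days in 4 groups. WT mice were C57BL/6JOlaHsd and MyTrMaSt null mice lacked 4 adaptors of innate immune receptors in all their cells, namely Myd88, Trif, Mavs and Tmem173. Conduritol B-epoxide (CBE), a compound given to induce the disease chemically, was injected daily into the abdomen at 100 mg/kg from the second postnatal week, and the controls received PBS. The groups were WT + PBS (n = 3), WT + CBE (n = 3), MyTrMaSt + PBS (n = 3) and MyTrMaSt + CBE (n = 5). CBE reaches the whole body rather than one cell type, so the CBE groups are a chemical and not a genetic model of the disease. RNA came from homogenised brain tissue, so each value is an average over regions and cell types.

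Voltage-gated channels open on a change of the membrane potential, and their pore is formed by alpha subunits that auxiliary subunits traffic and tune. Sodium channels carry the upstroke of the action potential, potassium channels repolarise the membrane and set the resting potential, and calcium channels couple electrical activity to transmitter release and gene expression. HCN channels open on hyperpolarisation and carry a pacemaker current, and glial cells take up potassium through inward rectifiers.

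Library totals ran from 1290616 to 3704691 counts, and the median tested channel gene had 33 to 162 counts in a library. WT + PBS replicate 1 stood apart. It had the lowest total, its mean log2 distance to the other libraries of its group was 1.26 against 0.43 to 0.86 for the other 13 libraries, and 10 channel genes were at least 2-fold above and 23 at least 2-fold below the mean of the other 2 WT + PBS libraries. Its deviation went with the GC content of the transcript, with a Spearman rho of 0.73 across 70 channel genes and 0.50 across 9063 genes (genes are not independent replicates). Weaker GC trends across channel genes were seen in MyTrMaSt + PBS replicates 1 and 3 (rho 0.41 and -0.40). MyTrMaSt + CBE replicates 1 and 4 had -0.45 and 0.39. The distance of 0.86 was that of WT + PBS replicates 2 and 3, measured in part to replicate 1. MyTrMaSt + CBE replicate 4 was at 0.61 against 0.48 to 0.50 in the rest of its group. In it 6.34% of all tested genes were at least 2-fold off, against 1.92% to 2.56% in that rest. Xist was counted at 0 in all WT + PBS libraries, at 1 to 47 in WT + CBE, at 32 to 46 in MyTrMaSt + PBS and at 0 to 39 in MyTrMaSt + CBE (0 in replicate 4 and 18 to 39 in the rest), so sex may differ between groups and was not given in the labels. Where leaving out WT + PBS replicate 1 changed a call or turned the direction of a gene's log2 fold change after CBE, the value without it is given beside the result. The 4 deleted genes were counted in every library of both genotypes and did not share a direction. Myd88 was at 3.11 to 4.49 CPM (counts per 1000000 scaled counts of the library) in MyTrMaSt + PBS and 9.95 to 17.1 CPM in WT + PBS, and Tmem173 the other way, at 5.02 to 7.04 CPM in MyTrMaSt + PBS and 0.902 to 2.49 CPM in WT + PBS, while Ticam1 (which encodes Trif) and Mavs overlapped between the genotypes. 3' end tags outside the altered part of a gene say nothing of its loss. Neuronal, astrocyte and oligodendrocyte markers were present in every library, while none of the 4 haemoglobin genes searched for is in the table. Because the tissue is bulk brain, fewer cells of a type and less RNA per cell cannot be told apart. No source used here says how animals were assigned, so p-values measure the spread between these libraries.

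After CBE the summed level of the channel genes was lower for each class in WT, and for potassium and sodium channels in MyTrMaSt. The 74 potassium channel genes together were at 4162, 4056 and 3859 CPM in WT + PBS and 3298, 3296 and 3483 CPM in WT + CBE, without overlap. In MyTrMaSt the same sum was 4034, 4034 and 4023 CPM after PBS and 3586, 3911, 3605, 3973 and 3466 CPM after CBE, again without overlap. The 11 sodium channel genes summed to 2098, 1516 and 1315 CPM in WT + PBS and 1047, 1015 and 1033 CPM in WT + CBE, and to 1442, 1379 and 1429.7 CPM in MyTrMaSt + PBS and 1124, 1085, 1157, 1195 and 1139 CPM in MyTrMaSt + CBE. Every CBE library lay below every PBS library of its genotype for sodium channels, and WT + PBS replicate 1 was the highest of all. Calcium channel genes summed to 1365, 1499 and 1427 CPM in WT + PBS and 1198, 1162 and 1293 CPM in WT + CBE, without overlap. In MyTrMaSt they summed to 1355, 1331 and 1338 CPM after PBS and 1245, 1303, 1363, 1356 and 1157 CPM after CBE, and those groups overlapped. The 3 HCN genes summed to 230.1, 121 and 103 CPM in WT + PBS and 73.9, 62.9 and 89.2 CPM in WT + CBE, with WT + PBS replicate 1 far above its group, and the MyTrMaSt sums overlapped. These sums are a description and were not tested.

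**Figure D1:**
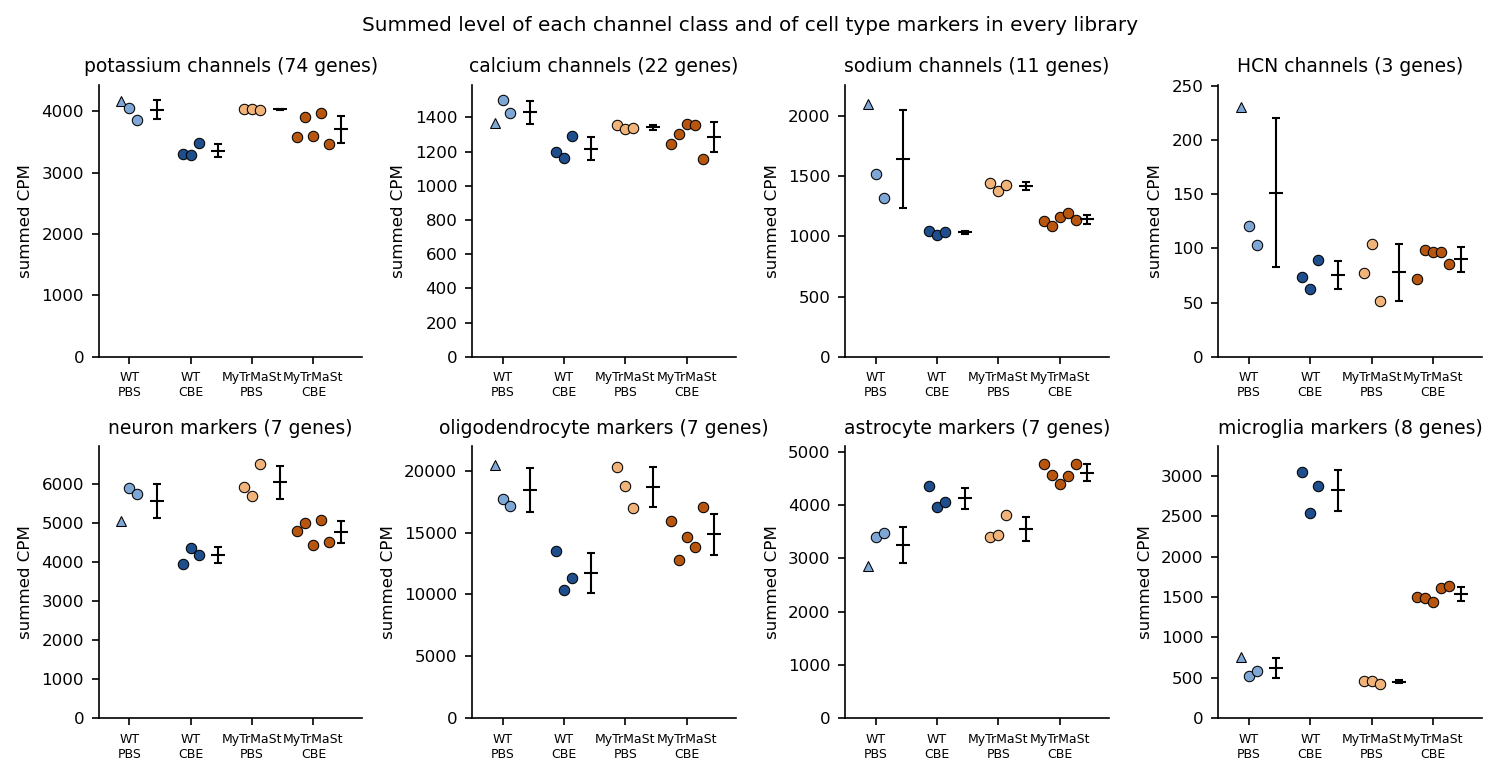
Summed CPM (y axis, linear from 0) of the 4 channel classes and of 4 cell type marker lists in every library, by group (x axis), with triangles for WT + PBS replicate 1, circles for the other libraries, and bars for the mean ± SD. Potassium and sodium channel sums of the CBE libraries lie below those of the PBS libraries in both genotypes, neuronal and oligodendrocyte marker sums of the 3 WT + CBE libraries lie below those of the WT + PBS libraries, and microglial marker sums are higher after CBE in both genotypes.

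The first comparison asked what CBE does in WT mice. In WT + CBE against WT + PBS, 10 of the 93 tested channel genes passed an adjusted p of 0.05, of which 9 fell and 1 rose. That share, 10.8%, stands beside 10.6% of all 11852 tested genes. The fall was the more frequent direction among channel genes, with 9 of 93 lower beside 3.89% of all tested genes, and with 1 of 93 higher beside 6.7%. Kcng4, Hcn2, Kcna6, Scn4b, Scn2b, Cacng3, Kcnc2 and Kcnmb4 were among the genes that fell, and the gene that rose was Kcnk6. Differentially expressed genes (DEGs), which also had to change at least 2-fold, were Kcng4, Hcn2 and Kcnk6, beside 6.4% of all tested genes. The median log2 fold change of the tested channel genes was -0.22, against -0.02 for all tested genes. Of the channel genes 64 of 93 were below 0, beside 51.8% of all tested genes. At an unadjusted p below 0.05 there were 25 channel genes, beside 24.7% of all tested genes. All CBE libraries lay below all PBS libraries for 17 of 93 channel genes, 18.3% beside 12.8% of all tested genes. The count of 10 rested on the libraries and model used: it was 16 without WT + PBS replicate 2, 5 without WT + CBE replicate 1 or 3, and 4 without WT + CBE replicate 2. With the Xist level as a covariate 3 were called, namely Kcng4, Scn2b and Scn4b, beside 5.45% of all tested genes. When only the WT libraries entered the fit 2 were called, Kcng4 and Kcnk6, beside 4.46%. Passing here and below refers to edgeR with all 14 libraries unless another tool or setting is named. Genes called in WT by another tool and not by edgeR included Kcnk3 and Kcnc4 with DESeq2 and Cacna2d4, Kcna2, Kcnc1, Scn2a1 and Scn8a with limma voom. In the same comparison 3 of 7 neuronal and 5 of 7 oligodendrocyte markers fell, and their part in these calls was not tested.

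Without WT + PBS replicate 1 the count was again 9 lower (beside 4.05% of all genes tested) and 1 higher (beside 8.58%), or 10 called beside 12.6%, but only 6 of the 10 genes were the same. Of 4 genes no longer called, Hcn2, Kcna6 and Kcnmb4 are described here, and of 4 that were called as lower in their place, Kcnc1, Scn2a1 and Scn8a. The 6 genes called with and without that library were Kcng4, Kcnc2, Cacng3, Scn2b, Scn4b and Kcnk6, of which Kcnc2, Cacng3 and Kcnk6 were not called with Xist as a covariate and Kcnc2, Cacng3, Scn2b and Scn4b not with the WT libraries alone. Then 5 of 7 neuronal and 6 of 7 oligodendrocyte markers fell. The median log2 fold change was -0.23, against -0.002 for all genes tested, and 74 of 93 channel genes were below 0, beside 50.2%. Groups did not overlap, with CBE lower, for 36 of 93 channel genes, 38.7% beside 22.7% of all genes, where 3 libraries faced 2.

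**Figure D2:**
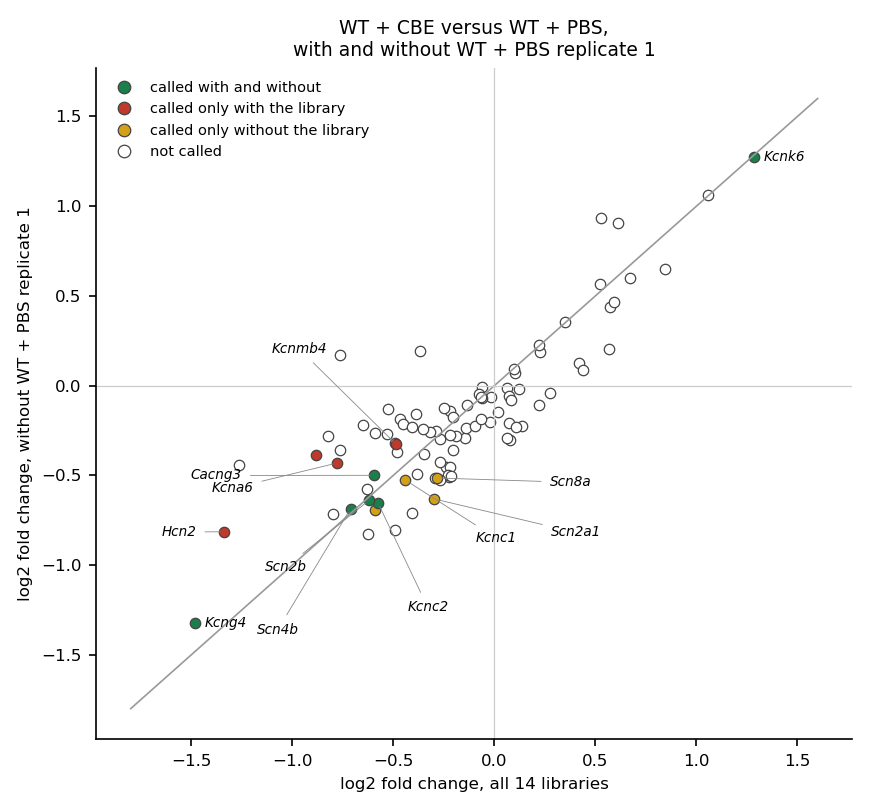
Log2 fold change of the 93 tested channel genes in WT + CBE versus WT + PBS with all 14 libraries (x axis) and without WT + PBS replicate 1 (y axis); the diagonal marks equal values. Filled points are called at an adjusted p below 0.05: 6 with and without the library, 4 only with it (Hcn2 moved from -1.34 to -0.81) and 4 only without it.

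The second comparison asked the same in mice without the 4 adaptors. In MyTrMaSt + CBE against MyTrMaSt + PBS, 6 of 93 tested channel genes passed, with 4 lower (Kcnc2, Scn2b, Scn4b and Kcnc1) and 2 higher (Kcnk6 and Cacna2d4), a share of 6.45% beside 7.75% of all tested genes. The lower genes were 4 of 93 beside 2.44% of all tested genes and the higher genes 2 of 93 beside 5.32%. Kcnk6 and Cacna2d4 were also DEGs, beside 3.89% of all tested genes. The median log2 fold change was -0.14 against 0.01 for all tested genes, and 24 channel genes had an unadjusted p below 0.05, beside 23.7% of all tested genes. Kcnc2, Scn2b, Scn4b and Kcnk6 passed in both genotypes, which is 40% of the WT calls and 66.7% of the MyTrMaSt calls, beside 37.8% and 51.6% over all tested genes, where 474 were called in both. Leaving WT + PBS replicate 1 out of the shared fit, which changed no MyTrMaSt library, brought the MyTrMaSt calls to 15 lower (beside 7.87% of all genes tested) and 6 higher (beside 10.7%), or 22.6% beside 18.6%, and kept all 6. The count was 3 without MyTrMaSt + PBS replicate 2 or 3. It was 17 when only the MyTrMaSt libraries entered the fit, beside 15.1% of all genes then tested. Beyond the edgeR calls, DESeq2 called Kcnab1, Kcnf1 and Kcnv1 in MyTrMaSt, and limma voom called these and Cacna1b, Cacna2d1, Cacna2d3, Cacnb1, Kcna1, Kcna5, Kcnj3, Kcnj8, Kcnk3, Kcns1, Kcnu1, Scn1a and Scn8a. Of these, Kcna5, Kcnf1, Kcnj3, Kcnj8 and Kcns1 were named here after their values were seen. All CBE libraries lay below all PBS libraries for 19 of 93 channel genes, 20.4% beside 10.7% of all tested genes.

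**Figure D3:**
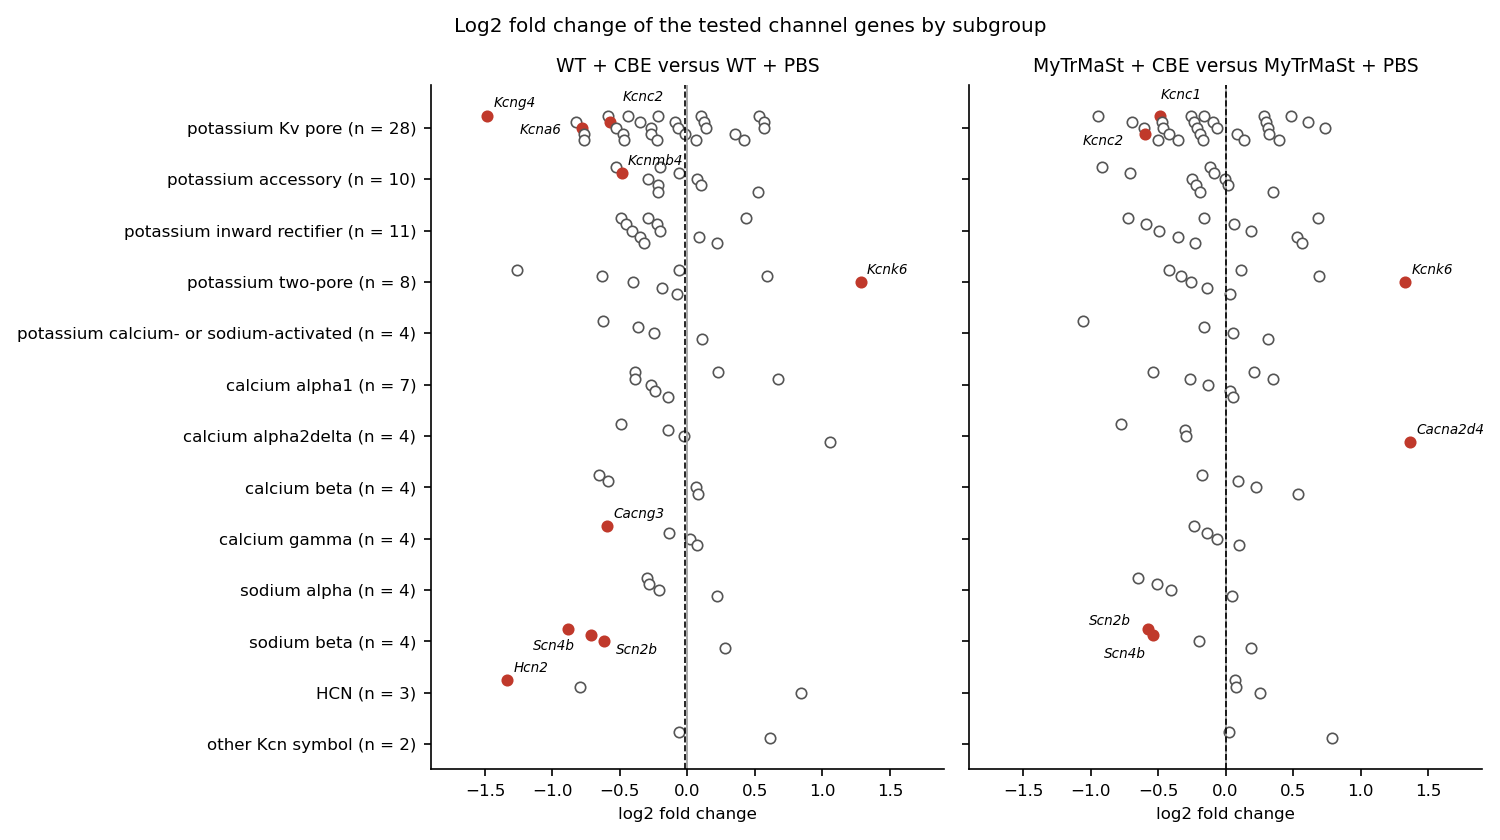
Log2 fold change (x axis) of each tested channel gene by subgroup (rows, with the number of genes) for the CBE comparison in WT (left) and in MyTrMaSt (right). Filled points passed an adjusted p of 0.05 (10 in WT and 6 in MyTrMaSt), the grey line marks 0 and the dashed line the median of all 11852 tested genes.

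Pore subunits of the voltage-gated potassium (Kv) channels were the largest subgroup, with 28 tested genes, of which 3 fell in WT and 2 in MyTrMaSt. When WT + PBS replicate 1 was left out, 4 fell in WT, and 6 fell and 1 rose in MyTrMaSt. Their median log2 fold change was -0.25 in WT and -0.18 in MyTrMaSt. Kcng4 (chr8:119623854-119635680, minus strand, mm10) encodes a modifier subunit that is silent alone and alters Kv2 channels. Its level was 48.7, 40.6 and 27.4 CPM in the WT + PBS libraries and 16.0, 8.92 and 15.7 CPM in WT + CBE. All WT + CBE libraries lay below all WT + PBS libraries, and the log2 fold change was -1.48 with an SE of 0.24 and an adjusted p of 0.000379, or -1.32, adjusted p = 0.000326 without WT + PBS replicate 1. In MyTrMaSt, Kcng4 stood at 27.6, 25.1 and 24.3 CPM after PBS and 23.8, 22.9, 25.9, 20.2 and 21.1 CPM after CBE. These groups overlapped, with a log2 fold change of -0.17 with an SE of 0.20 and an adjusted p of 0.652.

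Kcnc2 and Kcnc1 encode Kv3 subunits, the rapidly closing channels of fast-spiking neurons. Kcnc2 (chr10:112271121-112467024, plus strand) was counted at 69.5, 77.6 and 98.3 CPM in WT + PBS and 56.7, 51.6 and 57.2 CPM in WT + CBE. MyTrMaSt libraries held 106, 94.0 and 93.0 CPM of Kcnc2 after PBS and 68.2, 69.5, 62.8, 62.5 and 58.7 CPM after CBE. CBE libraries were below PBS libraries without overlap in both genotypes, and the log2 fold change was -0.58 with an SE of 0.16 and an adjusted p of 0.0243 in WT (-0.65, adjusted p = 0.00396 without WT + PBS replicate 1) and -0.60 with an SE of 0.13 and an adjusted p of 0.00931 in MyTrMaSt. Kcnc1 (chr7:46396497-46438704, plus strand) was at 204, 275 and 226 CPM in WT + PBS and 176, 141 and 204 CPM in WT + CBE, where the groups overlapped by 1 library. Its values were 253, 301 and 292 CPM in MyTrMaSt + PBS and 204, 206, 221, 204 and 174 CPM in MyTrMaSt + CBE. There the groups did not overlap. The log2 fold change of Kcnc1 was -0.48 with an SE of 0.14 and an adjusted p of 0.0429 in MyTrMaSt and -0.44 with an SE of 0.16 and an adjusted p of 0.0921 in WT, which became -0.52, adjusted p = 0.0222 without WT + PBS replicate 1. The MyTrMaSt call of Kcnc1 was lost in 10 of 14 fits that left out 1 library, and also with no filter on low counts, with the replicate block and with Xist as a covariate, at an adjusted p of up to 0.226.

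Kcna6 (chr6:126708329-126740674, minus strand), a Kv1 pore subunit, reached 251, 123 and 149.8 CPM in the WT + PBS libraries and 102, 89.2 and 109.7 CPM in those of WT + CBE. The log2 fold change was -0.78 with an SE of 0.21 and an adjusted p of 0.0251, and without WT + PBS replicate 1, its highest library, it was -0.43, adjusted p = 0.0679. In MyTrMaSt, Kcna6 ranged over 118 to 136 CPM after PBS and 108 to 151 CPM after CBE, which overlapped. The annotation places exons of Gm26673 on the other strand of Kcna6, and the counting is not stated to use strand, so their reads cannot be told apart. The same limit holds for 35 of the 110 members with such overlaps. Among them are Cacnb1, Cacna1a, Cacna1d, Kcnma1, Kcnk1, Kcnj3, Hcn3 and Kcnh3. Exons of Kcnab2 overlap those of Gm16334 on the same strand. The axonal Kv1 subunits Kcna1 and Kcna2 did not pass with edgeR and all libraries in either genotype, at log2 fold changes of 0.13 and -0.27 in WT and -0.61 and -0.36 in MyTrMaSt. Limma voom called Kcna2 in WT (log2 fold change -0.42, adjusted p = 0.037) and Kcna1 in MyTrMaSt (-0.59, adjusted p = 0.0113), and edgeR with only the MyTrMaSt libraries also called Kcna1 (-0.60, adjusted p = 0.00608). WT + PBS replicate 1 held 17.1 CPM of Kcna1 beside 91.2 and 68.8 CPM in its group and 74.2, 58.2 and 72.3 CPM in WT + CBE, and without it the WT direction turned, to -0.23, adjusted p = 0.453. Kcna1 then passed in MyTrMaSt (log2 fold change -0.60, adjusted p = 0.00334).

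Kcnq3, a subunit of the M current that restrains repetitive firing, had log2 fold changes of -0.35 in WT and -0.16 in MyTrMaSt and did not pass. Kcnd2 and Kcnd3, pore subunits of the A current, had log2 fold changes of 0.42 and 0.57 in WT and -0.46 and 0.28 in MyTrMaSt, and did not pass with all libraries. WT + PBS replicate 1 was their lowest library, at 9.93 CPM of Kcnd2 beside 38.1 and 34.2 CPM and at 3.61 CPM of Kcnd3 beside 33.99 and 37.5 CPM. Without it the WT values were 0.13, adjusted p = 0.753 for Kcnd2 and 0.20, adjusted p = 0.684 for Kcnd3, and Kcnd2 fell in MyTrMaSt (log2 fold change -0.45, adjusted p = 0.0401). Kcnv1, a silent modifier subunit, was at 13.1, 11.1 and 11.6 CPM in MyTrMaSt + PBS and 6.62, 8.26, 4.46, 4.92 and 6.26 CPM in MyTrMaSt + CBE, without overlap. Its MyTrMaSt log2 fold change was -0.95 with an SE of 0.29 and an adjusted p of 0.0555, and -0.94, adjusted p = 0.00666 without WT + PBS replicate 1.

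Of 10 tested accessory subunits of potassium channels, 1 fell in WT and none passed in MyTrMaSt (edgeR; 2 at an unadjusted p below 0.05), where DESeq2 and limma voom each called Kcnab1. Kcnmb4 (chr10:116417861-116473878, minus strand), the neuronal beta subunit of the large-conductance calcium-activated channel, was at 348, 249.8 and 269 CPM in WT + PBS and 184, 220.1 and 213 CPM in WT + CBE. The groups did not overlap, and the log2 fold change was -0.49 with an SE of 0.15 and an adjusted p of 0.0441, and -0.33, adjusted p = 0.095 without WT + PBS replicate 1, its highest library. The Kcnmb4 call was lost in 12 of 14 fits that left out 1 library, at an adjusted p of up to 0.258 over all settings. In MyTrMaSt, Kcnmb4 spanned 229.8 to 261 CPM after PBS and 202 to 246 CPM after CBE. Antisense exons of Kcnmb4os1 and Kcnmb4os2 overlap those of Kcnmb4, and Kcnmb4os2 itself, at 16.6 to 19.4 CPM in WT + PBS and 13.1 to 19.3 CPM in WT + CBE, did not pass. The Kv beta subunit Kcnab1 was at 95.6, 93.0 and 145 CPM in MyTrMaSt + PBS and 81.0, 74.7, 64.4, 58.1 and 61.5 CPM in MyTrMaSt + CBE, without overlap, with a log2 fold change of -0.71 with an SE of 0.22 and an adjusted p of 0.0596. Kcnab1 passed in MyTrMaSt without WT + PBS replicate 1 (-0.70, adjusted p = 0.00606). Kcnab2, another Kv beta subunit, had a WT log2 fold change of -0.53 with an SE of 0.24 and an adjusted p of 0.186, which was -0.13, adjusted p = 0.715 without WT + PBS replicate 1. The 4 Kv4-interacting proteins Kcnip1, Kcnip2, Kcnip3 and Kcnip4 had log2 fold changes from -0.22 to 0.10 in WT (-0.36 to 0.07 without WT + PBS replicate 1, where Kcnip1 turned from 0.07 to -0.06) and from -0.25 to 0.02 in MyTrMaSt, and none passed.

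None of the 11 tested inward rectifiers passed in either genotype with all libraries (edgeR; 1 in WT and 3 in MyTrMaSt at an unadjusted p below 0.05). DESeq2 called none in either, while limma voom called Kcnj3 and Kcnj8 in MyTrMaSt. In MyTrMaSt 1 fell without WT + PBS replicate 1, Kcnj3 (log2 fold change -0.58, adjusted p = 0.0076), and 1 rose, Kcnj4. Kcnj10 (Kir4.1), the potassium uptake channel of astrocytes, was at 50.5, 216 and 140.1 CPM in WT + PBS and 225, 182 and 155 CPM in WT + CBE. Those groups overlapped, with WT + PBS replicate 1 lowest, and the log2 fold change was 0.44 with an SE of 0.32 and an adjusted p of 0.439, or 0.09, adjusted p = 0.844 without that library. In MyTrMaSt the log2 fold change of Kcnj10 was 0.19 with an SE of 0.28 and an adjusted p of 0.724. Kcnj16, its partner subunit, had log2 fold changes of -0.29 in WT (-0.51, adjusted p = 0.216 without WT + PBS replicate 1, its lowest library) and -0.16 in MyTrMaSt. Kcnj2, a strong rectifier also found in microglia, had 0 counts in WT + PBS replicate 1 and 8.57 and 14.3 CPM in the other WT + PBS libraries, with 11.9, 7.98 and 10.2 CPM in WT + CBE, and its WT log2 fold change turned from 0.22 to -0.11 without that library. Kcnj4, a forebrain rectifier, was at 81.8, 81.9 and 62.3 CPM in MyTrMaSt + PBS and 93.1, 107, 98.1, 159.5 and 89.6 CPM in MyTrMaSt + CBE. The groups did not overlap, the log2 fold change was 0.53 with an SE of 0.20 and an adjusted p of 0.115 (0.53, adjusted p = 0.0329 without WT + PBS replicate 1), and in WT it was -0.49 with an SE of 0.22 and an adjusted p of 0.183.

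Among 8 tested 2-pore channels, which carry background potassium current, Kcnk6 rose in both genotypes. Kcnk6 (TWIK2; chr7:29221926-29232515, minus strand) is a 2-pore channel known from macrophages. It was at 4.51, 5.25 and 4.22 CPM in WT + PBS and 11.9, 10.3 and 12.7 CPM in WT + CBE. MyTrMaSt libraries had 2.42, 4.23 and 3.52 CPM of Kcnk6 after PBS and 10.9, 6.01, 9.73, 9.35 and 7.83 CPM after CBE. Each CBE library was above each PBS library of its genotype, and the log2 fold change was 1.28 with an SE of 0.30 and an adjusted p of 0.00849 in WT (1.27, adjusted p = 0.0104 without WT + PBS replicate 1) and 1.33 with an SE of 0.27 and an adjusted p of 0.00529 in MyTrMaSt. With Xist as a covariate the WT call of Kcnk6 was lost (1.26, adjusted p = 0.0852). Kcnk6 was a low-count gene, with 5 to 19 counts per library after PBS and 21 to 41 after CBE in WT. Microglial markers rose in 6 of 8 in each genotype, and their part in the Kcnk6 result was not tested. Kcnk3 (TASK1), an acid-sensitive background channel, was at 77.6, 21.8 and 17.7 CPM in WT + PBS and 12.2, 12.7 and 20.5 CPM in WT + CBE, where the groups overlapped. WT + PBS replicate 1 was its highest library, and the log2 fold change was -1.26 with an SE of 0.41 and an adjusted p of 0.0601 with it and -0.44, adjusted p = 0.257 without it. In MyTrMaSt, Kcnk3 was at 11.0, 10.04 and 9.86 CPM after PBS and 15.6, 17.3, 17.8, 13.8 and 18.8 CPM after CBE, without overlap, with a log2 fold change of 0.69 with an SE of 0.39 and an adjusted p of 0.29 that became 0.70, adjusted p = 0.0187 without WT + PBS replicate 1. The annotation has Gm9899 on the other strand of Kcnk3. Kcnk1, which is also found in astrocytes, and Kcnk13, a microglial 2-pore channel, did not pass, at log2 fold changes of -0.19 and 0.59 in WT and -0.25 and -0.42 in MyTrMaSt.

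Of the calcium- or sodium-activated potassium channels, 4 genes were tested and none passed in either genotype with all libraries (edgeR; 0 in WT and 1 in MyTrMaSt at an unadjusted p below 0.05). DESeq2 also called none, and limma voom called Kcnu1 in MyTrMaSt. Kcnma1, the large-conductance channel, had log2 fold changes of 0.11 with an SE of 0.29 and an adjusted p of 0.872 in WT (-0.23, adjusted p = 0.447 without WT + PBS replicate 1, which turned its direction) and 0.05 with an SE of 0.26 and an adjusted p of 0.929 in MyTrMaSt. Kcnu1, a related channel best known from sperm, was at 4.83, 6.60 and 7.40 CPM in MyTrMaSt + PBS and 1.17, 3.38, 4.05, 1.48 and 4.70 CPM in MyTrMaSt + CBE, with a log2 fold change of -1.06 with an SE of 0.37 and an adjusted p of 0.0889. Kcnu1 passed without WT + PBS replicate 1 (-1.05, adjusted p = 0.0384). Kcnn4, the intermediate-conductance channel of microglia and blood cells, did not reach the count filter. In WT its counts were 1, 0 and 0 after PBS and 10, 7 and 4 after CBE, and in MyTrMaSt 1, 6 and 3 after PBS and 6, 3, 3, 1 and 8 after CBE. The WT groups did not overlap, and with no filter Kcnn4 had an adjusted p of 0.0141 in WT. Scn10a, a sodium channel of sensory neurons, had 1, 0 and 0 counts after PBS and 5, 6 and 5 after CBE in WT, at an adjusted p of 0.0384 when no filter was applied. Both rest on at most 10 counts in a library. The other 15 untested channel genes had at most 14 counts in any library.

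**Figure D4:**
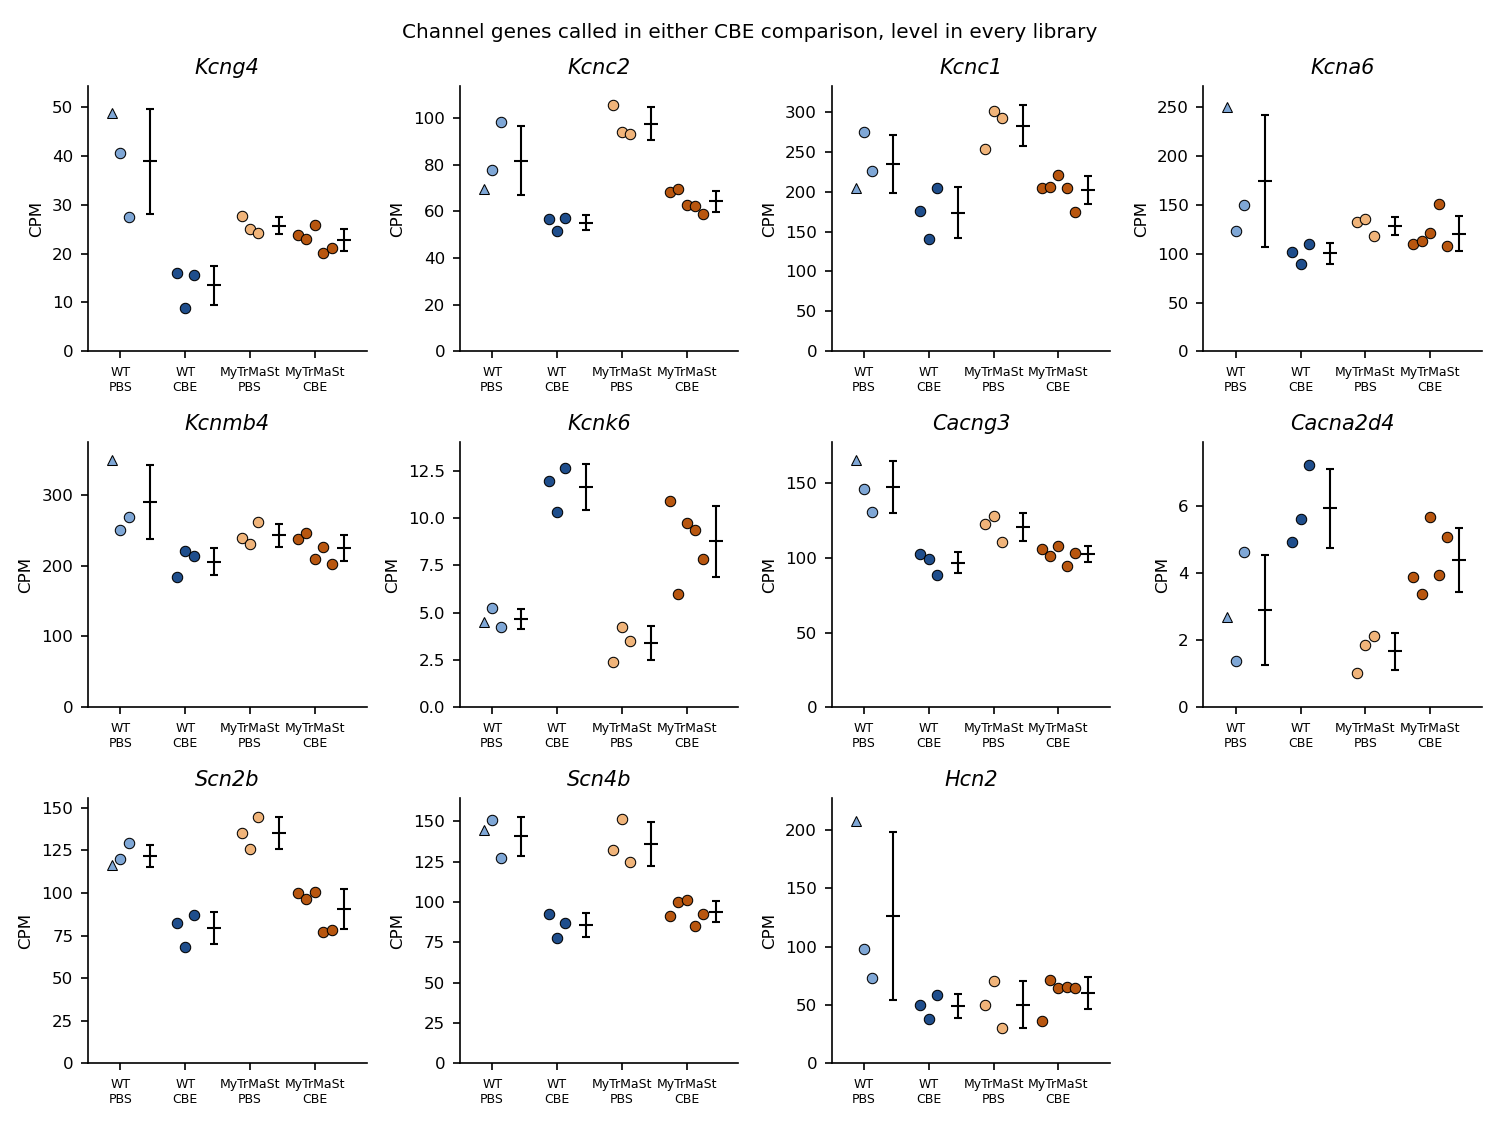
CPM (y axis, linear from 0) of 11 of the 12 channel genes called in either CBE comparison, in every library by group (x axis). Triangles mark WT + PBS replicate 1, circles the other libraries, and bars the mean ± SD of each group. Kcnc2, Scn2b, Scn4b, Kcnk6, Cacng3 and Cacna2d4 separate CBE from PBS in both genotypes. In Hcn2 and Kcna6 the triangle is well above the rest.

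Calcium channel genes gave 1 call in each genotype among 19 tested, and without WT + PBS replicate 1 they gave 1 lower in WT and 2 higher and 2 lower in MyTrMaSt. Cacng3 (chr7:122670492-122769393, plus strand), a gamma subunit that also escorts AMPA receptors to synapses, was at 165, 146 and 130.4 CPM in WT + PBS and 102, 99.5 and 88.6 CPM in WT + CBE. The groups did not overlap, and the log2 fold change was -0.59 with an SE of 0.14 and an adjusted p of 0.0094 and, without WT + PBS replicate 1, -0.50, adjusted p = 0.0122. In MyTrMaSt, Cacng3 was at 123, 128 and 110.2 CPM after PBS and 106, 101, 108, 94.5 and 103 CPM after CBE. Every CBE library was again below every PBS library, but the log2 fold change of -0.23 with an SE of 0.12 and an adjusted p of 0.261 did not pass. Cacna2d4 (chr6:119236526-119352407, plus strand), an alpha2delta subunit known from the retina, was at 1.04, 1.85 and 2.11 CPM in MyTrMaSt + PBS and 3.90, 3.38, 5.67, 3.94 and 5.09 CPM in MyTrMaSt + CBE. Its log2 fold change was 1.37 with an SE of 0.40 and an adjusted p of 0.044 in MyTrMaSt. In WT, Cacna2d4 was at 2.71, 1.38 and 4.64 CPM after PBS and 4.95, 5.63 and 7.23 CPM after CBE, also without overlap, with a log2 fold change of 1.06 with an SE of 0.42 and an adjusted p of 0.124. Cacna2d4 had 3 to 7 counts in MyTrMaSt + PBS libraries. Its call was lost in 11 of 14 fits that left out 1 library, and also with DESeq2, with no filter on low counts, with the replicate block and with Xist as a covariate, at an adjusted p of up to 0.157.

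None of the 7 tested alpha1 subunits, which form the calcium pore, passed in either genotype with all libraries (edgeR; 1 in each at an unadjusted p below 0.05), and DESeq2 called none. Limma voom called Cacna1b in MyTrMaSt. Cacna1a (P/Q-type) and Cacna1b (N-type), the channels of transmitter release, had log2 fold changes of -0.27 and -0.24 in WT and 0.05 and -0.54 in MyTrMaSt. The lowest library of Cacna1b was WT + PBS replicate 1, and without it the WT value was -0.45, adjusted p = 0.106. Cacna1b was at 52.1, 53.6 and 68.0 CPM in MyTrMaSt + PBS and 45.6, 34.5, 42.6, 33.0 and 43.1 CPM in MyTrMaSt + CBE, without overlap, and passed without WT + PBS replicate 1 (log2 fold change -0.53, adjusted p = 0.0112). Cacna1d (L-type) was at 9.93, 12.4 and 13.5 CPM in WT + PBS and 18.6, 19.7 and 20.5 CPM in WT + CBE, without overlap, with a log2 fold change of 0.67 with an SE of 0.25 and an adjusted p of 0.0938. The L-type Cacna1c and the T-type genes Cacna1g, Cacna1h and Cacna1i had WT log2 fold changes from -0.39 to 0.23 and MyTrMaSt log2 fold changes from -0.26 to 0.35. Cacna2d1, the gabapentin-binding alpha2delta subunit, was at 1.80, 16.3 and 15.2 CPM in WT + PBS, where replicate 1 was lowest, and had log2 fold changes of -0.49 with an SE of 0.39 and an adjusted p of 0.49 in WT and -0.78 with an SE of 0.31 and an adjusted p of 0.14 in MyTrMaSt. Without that library Cacna2d1 passed in MyTrMaSt (-0.77, adjusted p = 0.0107) and was at -0.81, adjusted p = 0.0508 in WT. The beta subunit Cacnb1 was at 255, 146 and 140.5 CPM in WT + PBS and 118, 115 and 122 CPM in WT + CBE, and at 97.4, 98.5 and 97.2 CPM in MyTrMaSt + PBS and 113, 131, 146, 199 and 120.2 CPM in MyTrMaSt + CBE. Its CBE libraries lay below the PBS libraries in WT and above them in MyTrMaSt, at log2 fold changes of -0.59 with an SE of 0.22 and an adjusted p of 0.108 and 0.53 with an SE of 0.20 and an adjusted p of 0.115. Without WT + PBS replicate 1, its highest library, Cacnb1 was at -0.26, adjusted p = 0.372 in WT and passed in MyTrMaSt (0.54, adjusted p = 0.0112).

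Sodium channel beta subunits, which tune gating and anchor the pore at the membrane, fell in 3 of 4 in WT and 2 of 4 in MyTrMaSt with all libraries. Without WT + PBS replicate 1, 2 of 4 fell in each genotype, as did 2 of 4 sodium channel alpha subunits. Scn4b, the beta subunit linked to resurgent current, was at 144, 151 and 127 CPM in WT + PBS and 92.5, 77.9 and 86.8 CPM in WT + CBE. MyTrMaSt libraries held 132, 151 and 125 CPM of Scn4b after PBS and 91.6, 99.9, 101, 85.2 and 92.4 CPM after CBE. Neither genotype showed overlap, and the log2 fold change was -0.71 with an SE of 0.14 and an adjusted p of 0.0028 in WT (-0.69, adjusted p = 0.00167 without WT + PBS replicate 1) and -0.53 with an SE of 0.12 and an adjusted p of 0.0117 in MyTrMaSt. Scn2b, which links covalently to the alpha subunit, was at 116, 119.9 and 129 CPM in WT + PBS and 82.6, 68.5 and 86.8 CPM in WT + CBE. In MyTrMaSt, Scn2b stood at 135, 126 and 144 CPM after PBS and 99.8, 96.5, 101, 77.3 and 78.3 CPM after CBE. The groups were again apart in both genotypes, with log2 fold changes of -0.62 with an SE of 0.16 and an adjusted p of 0.0146 in WT (-0.64, adjusted p = 0.00586 without WT + PBS replicate 1) and -0.58 with an SE of 0.13 and an adjusted p of 0.0117 in MyTrMaSt. Scn2b (chr9:45117782-45130070) and Scn4b (chr9:45138395-45154152) lie next to each other on the plus strand. Scn3b, also a beta subunit, had log2 fold changes of 0.27 in WT and 0.19 in MyTrMaSt and did not pass. WT + PBS replicate 1 held 13.5 CPM of Scn3b beside 52.5 and 48.5 CPM in its group, and without it the WT direction turned, to -0.04, adjusted p = 0.943.

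The pore-forming sodium channel genes Scn1a, Scn2a1 and Scn8a did not pass with all libraries (edgeR; 0 of 4 alpha subunits in WT and 2 of 4 in MyTrMaSt at an unadjusted p below 0.05). DESeq2 called none, and limma voom called Scn2a1 and Scn8a in WT and Scn1a and Scn8a in MyTrMaSt. Scn8a (Nav1.6), the channel of the axon initial segment and node, was at 92.1, 175 and 188 CPM in WT + PBS and 124, 118 and 137 CPM in WT + CBE. WT + PBS replicate 1 was the lowest of all 14 libraries, and the log2 fold change was -0.28 with an SE of 0.20 and an adjusted p of 0.428 with it and -0.51, adjusted p = 0.0147 without it. In MyTrMaSt, Scn8a was at 163, 177 and 211 CPM after PBS and 131, 148, 129, 122 and 116 CPM after CBE. Those groups did not overlap, and the log2 fold change was -0.51 with an SE of 0.18 and an adjusted p of 0.0887, or -0.50, adjusted p = 0.00288 without WT + PBS replicate 1. Scn1a (Nav1.1), the channel of inhibitory neurons, had log2 fold changes of -0.21 with an SE of 0.27 and an adjusted p of 0.692 in WT (-0.50, adjusted p = 0.0737 without WT + PBS replicate 1, its lowest library) and -0.65 with an SE of 0.23 and an adjusted p of 0.0986 in MyTrMaSt, which was -0.64, adjusted p = 0.00361 without WT + PBS replicate 1. Scn2a1 (Nav1.2) had -0.30 with an SE of 0.31 and an adjusted p of 0.611 in WT, -0.63, adjusted p = 0.0273 without that library, and -0.41 with an SE of 0.27 and an adjusted p of 0.381 in MyTrMaSt, all as log2 fold changes.

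Promoter windows are shown for Scn2b, Scn4b and Kcnc2, which fell in both genotypes, and for Kcng4, which had the lowest WT log2 fold change, so that the start regions of genes that moved together can be read side by side. They come from RefSeq (GRCm38.p6), run from 250 bases before to 50 after the transcription start in the direction of the gene, and are chr9:45117626-45117925 (plus strand), chr9:45138374-45138673 (plus), chr10:112269767-112270066 (plus, the first of 4 listed for the gene) and chr8:119635631-119635930 (minus). A window is listed for 77 of the 110 members and for 9 of the 12 called genes. Capitals mark any match, on either strand, to the TATA box written TATAAA, the CCAAT box by its own letters, the GC box written as GGGCGG, the E-box written as CACGTG and the cyclic AMP response element written as TGACGTCA.
Scn2b: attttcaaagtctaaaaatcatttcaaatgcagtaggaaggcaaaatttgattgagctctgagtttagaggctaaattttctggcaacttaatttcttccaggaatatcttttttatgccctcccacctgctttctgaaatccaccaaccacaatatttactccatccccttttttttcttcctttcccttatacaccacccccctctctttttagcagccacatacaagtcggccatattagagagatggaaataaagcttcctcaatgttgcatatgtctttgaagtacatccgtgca
Scn4b: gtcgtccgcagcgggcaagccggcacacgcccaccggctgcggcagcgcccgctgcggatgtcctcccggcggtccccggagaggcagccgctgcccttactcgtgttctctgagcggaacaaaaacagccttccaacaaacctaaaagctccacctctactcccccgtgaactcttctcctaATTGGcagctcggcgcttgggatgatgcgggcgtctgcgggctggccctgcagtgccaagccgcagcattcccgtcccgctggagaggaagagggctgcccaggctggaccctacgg
Kcnc2: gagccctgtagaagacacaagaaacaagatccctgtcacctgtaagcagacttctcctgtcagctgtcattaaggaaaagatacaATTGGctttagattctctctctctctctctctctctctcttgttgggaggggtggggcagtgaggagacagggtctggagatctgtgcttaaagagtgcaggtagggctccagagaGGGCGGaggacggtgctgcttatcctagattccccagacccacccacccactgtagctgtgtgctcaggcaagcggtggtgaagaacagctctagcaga
Kcng4: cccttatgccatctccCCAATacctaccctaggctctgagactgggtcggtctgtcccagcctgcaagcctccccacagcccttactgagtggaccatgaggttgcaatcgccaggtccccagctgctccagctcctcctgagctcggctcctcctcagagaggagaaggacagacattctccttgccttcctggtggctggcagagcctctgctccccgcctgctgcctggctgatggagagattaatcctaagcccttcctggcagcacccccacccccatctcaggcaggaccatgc
Scn2b held none of these letters in its window, and 38.3% of its bases were G or C against 66.3% in Scn4b, 52.7% in Kcnc2 and 61.3% in Kcng4. CCAAT was matched in Scn4b, Kcnc2 and Kcng4 and in 37.4% of all 32851 windows listed for the genome, beside 30.0% of the windows of channel genes. GGGCGG was matched in Kcnc2 and in 35.7% of all windows, and in 47.3% of the 110 windows of channel genes. TATAAA stood in 4.5% of the channel gene windows and 13.6% of all windows, CACGTG in 6.4% and 7.2%, and TGACGTCA in none and 1.8%. These matches describe letters only.

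HCN genes gave 1 call, in WT. Hcn2 (chr10:79716634-79736108, plus strand), a main pacemaker subunit of brain, was at 208, 98.1 and 73.0 CPM in WT + PBS and 50.04, 38.0 and 58.4 CPM in WT + CBE. The groups did not overlap, but WT + PBS replicate 1 was more than 2-fold above the others. The log2 fold change was -1.34 with an SE of 0.35 and an adjusted p of 0.0207, and -0.81, adjusted p = 0.0574 without that library. In MyTrMaSt, Hcn2 was at 50.1, 70.5 and 29.9 CPM after PBS and 36.2, 71.4, 64.8, 65.0 and 64.6 CPM after CBE, with overlap and a log2 fold change of 0.26 with an SE of 0.31 and an adjusted p of 0.661. Hcn3 had log2 fold changes of -0.80 with an SE of 0.42 and an adjusted p of 0.256 in WT and 0.07 with an SE of 0.36 and an adjusted p of 0.937 in MyTrMaSt.

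The remaining comparisons asked whether the genotypes differ. In MyTrMaSt + CBE against WT + CBE no channel gene passed (edgeR), beside 2.54% of all tested genes, and 1 of 93 had an unadjusted p below 0.05, beside 8.06%. DESeq2 called none and limma voom called Kcng4, at a log2 fold change of 0.78, beside 4.56% of all tested genes. After PBS, MyTrMaSt against WT also gave 0 calls with edgeR (16 at an unadjusted p below 0.05, beside 16.8%) beside 0.186% of all genes and 0 with limma voom. There DESeq2 called Kcnk3, Hcn2, Kcnc4, Cacnb1, Kcnh3 and Kcnj4, all lower in MyTrMaSt, beside 2.26% of all tested genes. Kcnk3 had the lowest log2 fold change of that comparison, -1.77 with an SE of 0.41 and an adjusted p of 0.099, and -0.96, adjusted p = 0.0906 without WT + PBS replicate 1. For all 6 the highest WT + PBS library was replicate 1. Without it the edgeR log2 differences moved from -1.28 to -0.77 for Hcn2, -0.97 to -0.58 for Kcnc4, -0.87 to -0.56 for Cacnb1, -0.78 to -0.51 for Kcnh3 and -0.79 to -0.64 for Kcnj4. Kcnc4 and Kcnh3 were named here after their values were seen.

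The difference of the CBE effect between the genotypes was tested as an interaction. No channel gene passed with edgeR (15 at an unadjusted p below 0.05, beside 12.5%), beside 0.489% of all tested genes. DESeq2 and limma voom each called Kcng4 and Kcnk3, beside 1.12% and 1.22% of all tested genes. Kcng4 had an interaction of 1.31 with an SE of 0.32 and an adjusted p of 0.0935 on the log2 scale, positive where the log2 fold change was lower in WT, and 1.16, adjusted p = 0.0725 without WT + PBS replicate 1. Kcnk3 had 1.96 with an SE of 0.57 and an adjusted p of 0.188, and 1.14, adjusted p = 0.108 without that library. Hcn2 (1.59 with an SE of 0.47 and an adjusted p of 0.199), Cacnb1 (1.12 with an SE of 0.30 and an adjusted p of 0.141) and Kcnj4 (1.02 with an SE of 0.30 and an adjusted p of 0.195) had log2 interactions of the same sign. The 93 interactions ran both ways, with 44 below 0 and a median of 0.04 (30 below 0 and 0.08 without WT + PBS replicate 1). The lowest were those of Kcnk13 at -1.01 with an SE of 0.39 and an adjusted p of 0.321, and Kcnd2 at -0.88 with an SE of 0.38 and an adjusted p of 0.368. Without WT + PBS replicate 1 they were -0.89, adjusted p = 0.377 for Kcnk13 and -0.58, adjusted p = 0.394 for Kcnd2. Of the 9 genes that fell in WT, 8 had a MyTrMaSt log2 fold change below 0, Hcn2 being the exception. For Kcnc2, Scn2b, Scn4b and Kcnk6, called in both genotypes, the interactions on the log2 scale were -0.02, 0.04, 0.18 and 0.05, and 0.06, 0.07, 0.16 and 0.06 without WT + PBS replicate 1. Choosing genes by a call in both genotypes favours small interactions, so these values are no test of an equal effect.

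**Figure D5:**
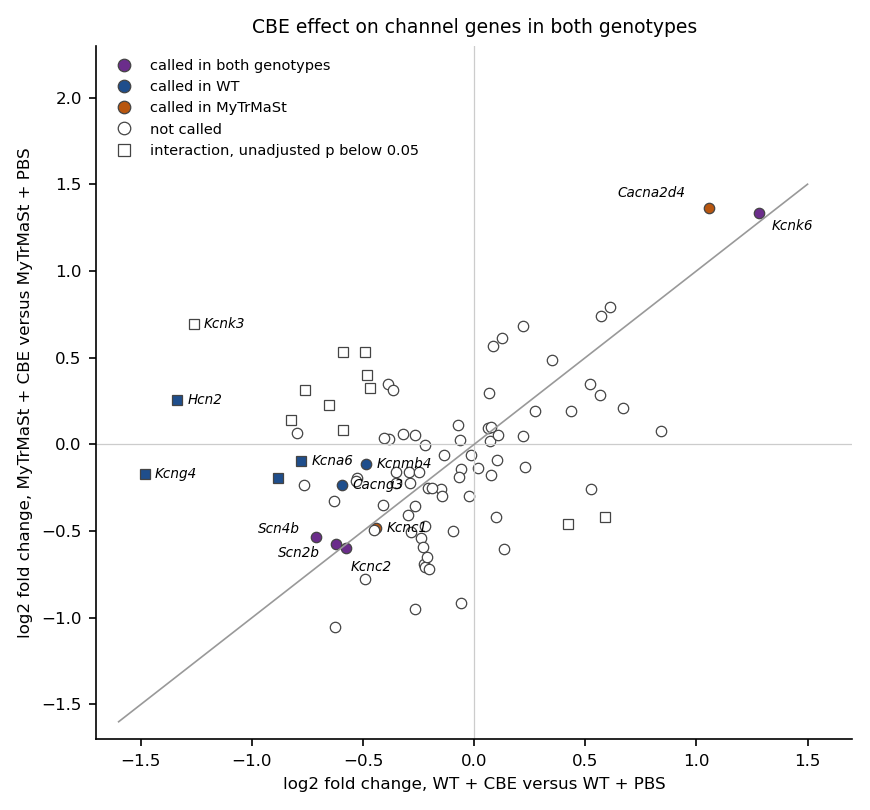
Log2 fold change after CBE of the 93 tested channel genes in WT (x axis) and in MyTrMaSt (y axis); the diagonal marks equal values. Colours show the genotype in which a gene was called and squares the 15 genes with an unadjusted interaction p below 0.05; Kcnc2, Scn2b, Scn4b and Kcnk6 lie near the diagonal, Kcng4, Hcn2 and Kcnk3 lie well above it, and Kcnk13 and Kcnd2 lie below it.

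Genes that work with these channels were taken from 3 lists. Of 9 tested genes of the axon initial segment and node, 2 fell in WT, namely Cntnap1 (log2 fold change -1.001, adjusted p = 0.0112), the paranodal adhesion protein, and Mag (-0.998, adjusted p = 0.014), a myelin protein, and 0 passed in MyTrMaSt (edgeR; 0 at an unadjusted p below 0.05). Of 12 channel partners, 1 fell in WT, Fgf11 (log2 fold change -0.77, adjusted p = 0.0333), and 1 fell in MyTrMaSt, Fgf13 (log2 fold change -0.70, adjusted p = 0.0233), both of which bind sodium channels. The partners that fell without WT + PBS replicate 1 were 2 in WT (Fgf11 and Unc80) and 6 in MyTrMaSt (Dpp10, Fgf11, Fgf13, Nalcn, Nedd4l and Unc80), while of the initial segment and node genes Cntnap1 and Mag still fell in WT and Ank3 in MyTrMaSt. Of 16 pumps and transporters that keep the ion gradients, 1 rose and 1 fell in WT and 1 rose in MyTrMaSt. In WT, Atp1b1 was lower (log2 fold change -0.50, adjusted p = 0.00938) and Atp1b3 higher (0.41, adjusted p = 0.0437), and in MyTrMaSt, Atp1b2 was higher (log2 fold change 0.86, adjusted p = 0.0191), all beta subunits of the sodium-potassium pump. Without WT + PBS replicate 1 the same 2 passed in WT, and 2 rose and 5 fell in MyTrMaSt.

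Cell type markers moved with these results. The counts that follow are for all 14 libraries. Of 7 neuronal markers, 3 fell in WT (median log2 fold change of the list -0.52) and 1 fell in MyTrMaSt (-0.30). Their summed level was 5061 to 5895 CPM after PBS and 3962 to 4369 CPM after CBE in WT, and 5693 to 6515 CPM after PBS and 4444 to 5091 CPM after CBE in MyTrMaSt. Oligodendrocyte markers fell in WT in 5 of 7 (median -0.68), with sums of 17161 to 20426 CPM after PBS and 10399 to 13529 CPM after CBE. In MyTrMaSt 0 of those 7 passed with edgeR (4 at an unadjusted p below 0.05), and their sums were 16994 to 20256 CPM after PBS and 12811 to 17053 CPM after CBE. Microglial markers rose in 6 of 8 in each genotype (median log2 fold change 1.81 in WT and 1.17 in MyTrMaSt), with sums of 518 to 763 CPM after PBS and 2539.6 to 3045 CPM after CBE in WT, and of 428 to 466 CPM after PBS and 1442 to 1634 CPM after CBE in MyTrMaSt. Of 7 astrocyte markers, 3 rose and 1 fell in WT and 2 rose in MyTrMaSt, with sums of 2862 to 3478 CPM after PBS and 3967 to 4346 CPM after CBE in WT, and 3398 to 3810.2 CPM after PBS and 4387 to 4765 CPM after CBE in MyTrMaSt. Of 5 inhibitory neuron markers Sst fell in WT, and of 3 Purkinje cell markers none passed in either genotype with edgeR (0 in WT and 1 in MyTrMaSt at an unadjusted p below 0.05). Without WT + PBS replicate 1, 5 of 7 neuronal markers fell in WT and 4 in MyTrMaSt, 6 of 7 oligodendrocyte markers fell in WT and 3 in MyTrMaSt, and 7 of 8 microglial markers rose in WT and 6 in MyTrMaSt. Of the astrocyte markers 3 then rose in WT and 4 in MyTrMaSt and none fell, Sst no longer passed in WT, and the Purkinje cell marker Calb1 fell in MyTrMaSt. The part of these shifts in the channel gene results was not tested.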

How the data were processed

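RNA from the brains of 14 mice was made into bulk MARSseq libraries, which count the 3' end of transcripts, and the authors aligned the reads to mm10 and deposited raw read counts per gene; cutadapt and HTSeq are named in the submitters' processing notes, without versions. Strand setting, annotation and any use of molecular identifiers are not given in the sources used here. Counts of 3' ends cannot be put on a per-length scale, so no result compares levels between genes; the highest mean CPM only chose which genes to name, and sums over a class are descriptions. Deposited normalized values, fold changes and p-values were not used. Library totals were 1290616 to 3704691 counts, which limits precision for genes of few counts.

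The 13866 listed genes were filtered with filterByExpr (11852 tested), scaled with TMM and fitted with edgeR 4.0.16 (R 4.3.3) in 1 quasi-likelihood model of the 4 groups over 14 libraries, followed by 5 comparisons with Benjamini-Hochberg adjustment over all tested genes. An adjusted p below 0.05 is a call, and a DEG also changed at least 2-fold. Levels are counts per 1000000 scaled by TMM (CPM), and SE is the standard error of the log2 fold change. Alternatives were DESeq2 1.42.0, limma 3.58.1 (voom with sample weights), RLE scaling, other filters, a replicate block, Xist as a covariate, fits of the compared groups alone and leaving out each library. The fit was tested on simulated counts.

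Named genes were all called members, the 5 highest and 5 lowest log2 fold changes of each CBE comparison among genes whose groups did not overlap, the gene of highest mean CPM in each subgroup, and a list by known role; some of these genes are not reported here. Members and lists were chosen with earlier results of these data known. Gene positions are from GENCODE M21 and promoter windows from RefSeq.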

Additional observations from a re-analysis of the deposited data

Results flagged for a closer look

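In the 5 MyTrMaSt + CBE libraries, 49 channel genes were examined for a library far from the other 4, and 4 were found. Chance flags about 1 in 20 groups, and 4 of 49 should be read beside that. Cacna1a was lowest in replicate 5, at 130.7 CPM. Hcn2 was lowest in replicate 1, at 36.2 CPM. The highest libraries stood out for the other two, Kcnab2 at 323 CPM in replicate 2 and Kcnj4 at 159.5 CPM in replicate 4. No channel gene passed the test of a difference in CBE effect between the genotypes with edgeR (15 at an unadjusted p below 0.05), while DESeq2 and limma voom each called 2.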

How the results depend on the processing

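In WT after CBE, 10 channel genes were called, and 16 with limma voom, 3 with Xist as a covariate and 2 when only the WT libraries were fitted. The share of all tested genes called moved too, from 10.6% to 16.9%, 5.45% and 4.46% under those settings. The 3 DEGs became 5 with no filter on low counts and 1 with Xist as a covariate. In MyTrMaSt the 6 calls became 22 with limma voom and 17 with the MyTrMaSt libraries alone. The share of all tested genes called there went from 7.75% to 17.4% and 15.1%. The 2 MyTrMaSt DEGs became 1 with DESeq2, with no filter or with Xist, and 0 where each library had to hold at least 10 counts. Between the CBE groups limma voom called 1 gene in place of 0, beside 4.56% of all tested genes. Between the PBS groups DESeq2 called 6, 2 of them DEGs, beside 2.26% of all tested genes, and the median log2 difference was -0.14 with Xist. For the interaction DESeq2 and limma voom each called 2, both past 2-fold, beside 1.12% and 1.22% of all tested genes. The median interaction was 0.18 with Xist. The cause of these shifts was not tested.

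The replicate numbers did not mark pairs by the correlations of deviations (-0.11 to 0.16). With the replicate block 7 channel genes were called in WT, beside 8.5% of all tested genes. In MyTrMaSt 1 was called, which was also its only DEG, beside 3.18%. Leaving out 1 library gave 4 to 16 calls (2 to 7 DEGs, median log2 fold change -0.25 to -0.11) in WT, 3 to 21 (1 to 3, -0.15 to -0.09) in MyTrMaSt, 0 to 0 (0 to 0, 0.05 to 0.10) between the CBE groups, 0 to 8 (0 to 6, -0.02 to 0.14) between the PBS groups and 0 to 1 (0 to 1) for the interaction, whose median ran from -0.068 to 0.084. Over the 16 called gene and comparison pairs and all settings, 266 of 349 values stayed called, 83 did not and 0 changed sign. Kcng4 in WT stayed called under every setting run, and Kcnk6 in MyTrMaSt under every setting that tested it, while the strictest count filter removed it. Over the 14 fits that left out 1 library, Kcnmb4 in WT lost its call in 12, Cacna2d4 and Kcnc1 in MyTrMaSt in 11 and 10, and Kcna6, Kcnc2 and Hcn2 in WT in 4, 4 and 3. Depth limits the genes of few counts, such as Kcnk6, Cacna2d4, Kcnn4 and Scn10a, and the 3 WT + PBS libraries, of which replicate 1 is the shallowest, limit every WT value.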
